A study of Mus musculus with 12 samples.

Results

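Retinoic acid (RA) was given for 72 hours to mouse embryonic stem (ES) cells of the TT2 line that lacked both Rlf and Zfp292 (double knockout, DKO), and their transcripts were compared with those of undifferentiated DKO cells. The comparison rests on 6 of the 12 libraries of the series, picked by the genotype and treatment in the sample labels. In 3 of them DKO cells were kept on gelatin with LIF in medium that held FBS and knockout serum replacement (serum/LIF), and in the other 3 they were kept for 72 hours in that medium with LIF left out and 5 µM RA added. LIF withdrawal and RA came together, so their effects cannot be told apart. The 6 libraries of wild-type (WT) TT2 cells, grown under the same conditions, were used to test where the DKO response differed. The labels give 3 biological replicates per group and do not say whether these were separate clones or cultures, so p-values measure only the spread between these libraries.

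RA is made from retinol, the alcohol form of vitamin A, by retinol and retinaldehyde dehydrogenases. Inside the cell it is carried by CRABP proteins, acts as the ligand of the retinoic acid receptors (RARs), which bind DNA as partners of the retinoid X receptors (RXRs), and is cleared by the CYP26 enzymes of the cytochrome P450 family. In the embryo it patterns the hindbrain and trunk through Hox genes. In ES cells without LIF, which otherwise holds them undifferentiated through STAT3, it is a standard means of ending pluripotency.

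Both targeted genes were checked first. The DKO libraries held 6 reads of Rlf before RA and 1 after it, with Zfp292 at 0 reads in either condition, which allows up to 3 reads per group by counting error alone, while WT means lay between 2611 and 3611 normalized counts for Rlf and between 3166 and 4909 for Zfp292. Depth was even, with 31410028 to 34878989 reads in genes per DKO library. No DKO library stood apart: their chi-square per degree of freedom against each other was 3.25 to 7.01, against 4.46 to 7.96 among WT libraries in serum/LIF. One WT library did stand apart, replicate 2 after RA (10.1 and 14.2 against its replicates, which differed by 5.06 from each other), and in the repeat table by 781 and 785 against 3.49. It enters the WT response, the difference between genotypes and, since all 12 libraries share 1 estimate of the spread, the p-values of the DKO comparison. Fitted to the 6 DKO libraries alone, 12410 genes and 545 repeat names were called in DKO, against 12340 and 542 with all 12.

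RA changed most of the transcriptome of DKO cells. Of 15750 genes tested, 12340 (78.3%) were called at a limma Benjamini-Hochberg adjusted p under 0.05, 6326 higher (40.2%) and 6014 lower (38.2%). Many changes were large: 3051 genes (19.4%) rose and 2240 (14.2%) fell by at least 1 on the log2 scale, 204 rose and 132 fell by at least 4, and 46 rose and 8 fell by at least 6. The median over all genes tested was 0.04, and the serum/LIF and RA libraries did not overlap for 80.3% of genes. With so many genes called, a count of list members has to be read against these shares. The split also depends on scaling, since the deposited normalized counts sum to more in serum/LIF than after RA. With libraries scaled to equal totals the median over all genes moved to 0.27, and 7857 genes were higher and 4626 lower. Values below are normalized counts per library, and log2 fold changes of RA against serum/LIF in DKO on the log2(normalized count + 1) scale are followed by their standard error (SE, n = 3 libraries per group). That scale understates the change of genes with few counts. In bulk RNA, fewer cells of a type and less RNA per cell cannot be told apart.

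The enzymes that clear RA had some of the largest increases. Cyp26a1, which encodes the main RA hydroxylase of the early embryo, stood at 43.6, 58.7 and 58.6 normalized counts in the serum/LIF libraries and at 18965, 19419 and 19291 after RA. All RA libraries lay above all serum/LIF libraries, which the rule for naming the largest changes required. The fold was 359 and the log2 fold change 8.47 ± 0.09 (limma adjusted p = 5.76e-26, higher in 3 of 3 libraries). Its relative Cyp26b1 stood at 41.3, 30.5 and 18.0 before and 18579, 19219.9 and 18637 after RA (9.32 ± 0.36, a fold of 628). Cyp26c1, the third gene of the family, rose far less, from a mean of 8.80 to 68.3 (2.84 ± 0.35). Dhrs3 encodes a reductase that turns retinaldehyde back into retinol, the step that opposes RA synthesis, and it went from 60.8, 56.3 and 42.8 to 5311, 5462 and 5478 (6.66 ± 0.15).

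Enzymes of RA synthesis moved both ways, several of them at low levels. Of the 25 genes listed for synthesis and clearance, 22 passed the filter on low values, and 15 of these rose, 3 fell and 4 were not called (median log2 fold change 1.24, against 0.04 over all genes). Rdh10, the retinol dehydrogenase needed for RA synthesis in the embryo, rose from 281 to 455 normalized counts (0.69 ± 0.14). Aldh1a2, the retinaldehyde dehydrogenase that makes most embryonic RA, was at 102, 141 and 131 in serum/LIF, reached 180.1, 137 and 148 after RA and was not called (0.32 ± 0.18; called with equal totals, at 0.55), nor was Aldh1a3 (−0.85 ± 0.50). Aldh1a7 rose from 23.8 to 558 (4.50 ± 0.20) and Aldh1a1 from 6.84 to 65.1 (3.33 ± 0.55); reads of these close relatives may have been split. Lrat, which stores retinol as an ester, rose from 7.65 to 52.5 (2.79 ± 0.63), and Adh1, an alcohol dehydrogenase that can oxidise retinol, from 5.32 to 83.3 (3.88 ± 0.48). The 3 that fell, Adh5 (−0.95 ± 0.04), Rdh11 (−0.32 ± 0.06) and Rdh13 (−0.32 ± 0.06), are genes with at least 1177 normalized counts in serum/LIF; under scaling to equal totals Rdh11 and Rdh13 were not called.

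RAR and RXR pairs bind direct repeats of a short half-site, so the promoters of induced genes were searched for such repeats. The half-sites searched were AGGTCA, its variant GGGTCA, a further variant AGTTCA and a last one GGTTCA, as direct repeats with spacers of 1, 2 or 5 bases, on both strands, in the 250 bases before each start in the RefSeq promoters of build GRCm38.p6. Promoters were found for 12386 of the 15750 genes tested. A repeat with a spacer of 5 was present in 9 of 15706 promoters of tested genes (0.0573%) and in 3 of 179 promoters of genes that rose by at least 4 on the log2 scale (1.68%), those of Cyp26a1, Rarb and Ppbp. Over all genes called higher it was present in 3 of 6497 promoters (0.0462%). With a spacer of 2 the counts were 13 (0.0828%) and 1 (0.559%), the latter Slc25a21 (4.09 ± 0.57), and with a spacer of 1 they were 24 (0.153%) and 0. A match describes letters in this window only. The sequences of the 3 spacer-5 promoters are shown from 5′ to 3′ on the strand of the gene with both half-sites in capitals; in Cyp26a1 and Ppbp the repeat lies on the opposite strand and reads as TGAACT or TGACCT.
Cyp26a1 (chr19:37697756-37697807, plus strand): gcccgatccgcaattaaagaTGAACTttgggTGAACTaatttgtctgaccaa
Rarb (chr14:16575493-16575549, minus strand): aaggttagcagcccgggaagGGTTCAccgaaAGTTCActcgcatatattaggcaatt
Ppbp (chr5:90768268-90768308, plus strand): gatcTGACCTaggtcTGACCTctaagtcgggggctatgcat
The repeat ends 16 bases before the annotated start in Cyp26a1, 37 bases before it in Rarb and 230 bases before it in Ppbp. Ppbp, which encodes a platelet chemokine, rose from 0, 4.69 and 0 to 83.4, 77.1 and 91.3 normalized counts (5.57 ± 0.68), and was named for its promoter after its values were seen, as was Slc25a21.

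**Figure D1:**
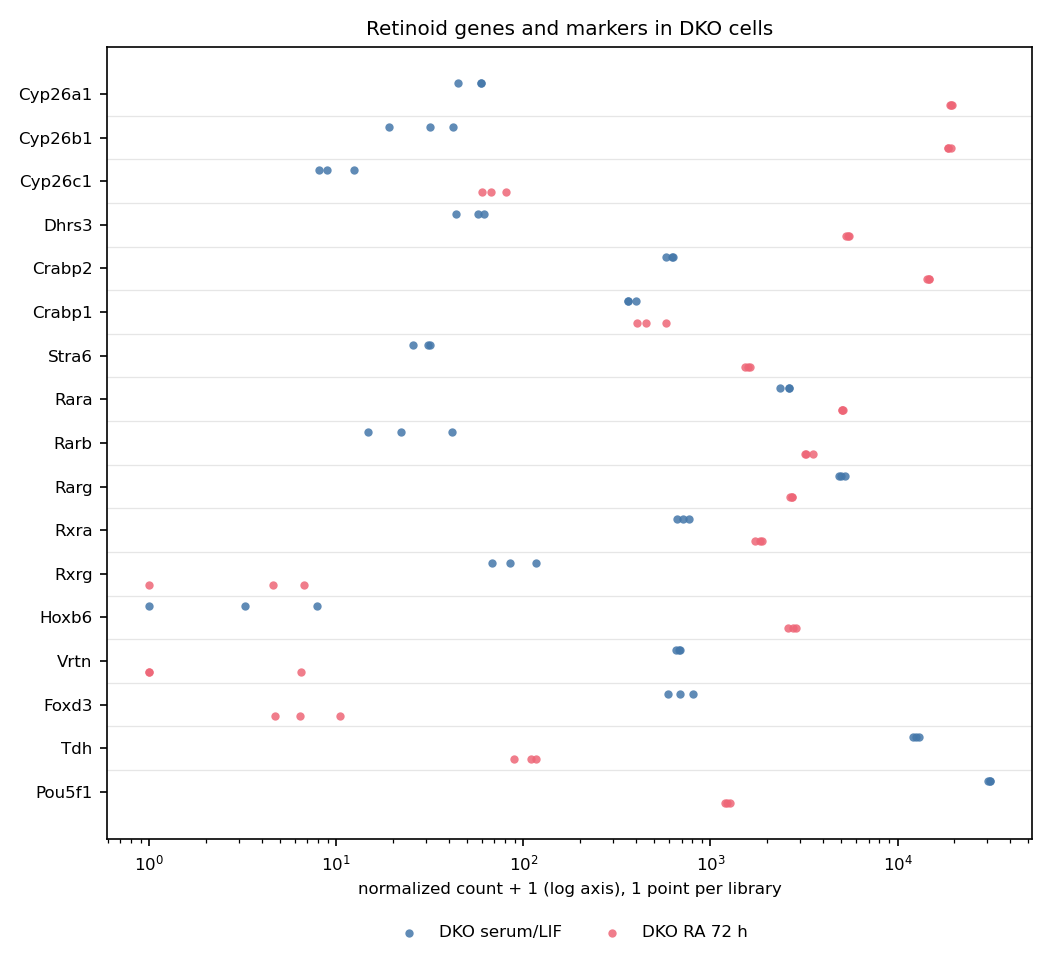
Normalized counts plus 1 on a log axis for retinoid genes and marker genes (rows) in DKO cells, 1 point per library, with serum/LIF in blue and RA in red (3 libraries each). Cyp26a1, Cyp26b1, Dhrs3, Rarb and Hoxb6 lie far higher after RA, Vrtn, Foxd3 and Tdh lie lower, and the points of Crabp1 lie close together.

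Receptors moved in different directions. Rarb, the receptor gene that RA itself induces, went from 13.8, 21.1 and 40.6 to 3257, 3179 and 3551 normalized counts (7.12 ± 0.33). Rara rose from 2533 to 5056 (1.0 ± 0.05), while Rarg, the gamma form of the receptor, fell from 4891, 5004 and 5261 to 2739.9, 2671 and 2711 (−0.90 ± 0.04). Among the RXR partners Rxra rose (1.35 ± 0.07), Rxrb rose slightly (0.30 ± 0.06), and Rxrg fell from 116, 66.9 and 83.4 to 5.69, 0 and 3.58 (−4.80 ± 0.52). The orphan receptors Nr2f1 and Nr2f2, known as COUP-TFI and COUP-TFII, rose from 18.1 to 2781 (7.29 ± 0.38) and from 32.9 to 3273 (6.61 ± 0.15). Nrip1, a corepressor gene and known RA target that limits receptor activity, rose from 1205 to 8744 (2.86 ± 0.06). The corepressor gene Ncor1 (−0.18 ± 0.05) fell, although with equal totals it was at 0.06 and not called. In all, 23 of 24 listed receptors and coregulators were tested, with 15 higher, 6 lower and 2 not called (median 0.74).

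Carriers and the retinol importer followed. Crabp2, which hands RA to nuclear receptors, went from 624, 629 and 579 to 14632, 14708 and 14354 (4.57 ± 0.05). Crabp1, which is thought to hold RA in the cytoplasm, stood at 363, 359 and 397 in serum/LIF against 449, 575 and 404 after RA; the groups did not overlap but the change was small (0.34 ± 0.10; 0.19 and not called without replicate 2 of DKO after RA). Stra6, the membrane receptor that takes up retinol, went from 29.8, 30.5 and 24.8 to 1535, 1632 and 1582 (5.76 ± 0.13), and Fabp5, a fatty acid carrier that can also bind RA, fell from 1057 to 529 (−1.0 ± 0.07). Of 10 carriers listed, 8 were tested, with 5 higher, 2 lower and 1 not called.

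A broader list of genes known as direct or early RA targets rose almost as a whole. Of 38 listed, 37 were tested, and 33 rose and 4 fell (median 4.57). How many passed the filter on low values only with RA libraries, which favours rises, was not counted. Over the 15 alternatives tried, which included no filter, 31 to 33 rose and 4 fell. This list and the retinoid and Hox lists share members, so their counts are not separate evidence. The TALE homeobox genes, whose proteins bind DNA together with Hox proteins, were among them: Meis1 rose from 268 to 6179 normalized counts (4.53 ± 0.08) and Meis2 from 301 to 9849 (5.03 ± 0.09). Their relatives Tgif1 (−0.96 ± 0.05), Tgif2 (−0.36 ± 0.05) and Pknox1 (−0.31 ± 0.06; −0.08 and not called with equal totals) fell, and the caudal gene Cdx2, at 20.6, 16.4 and 36.0 in serum/LIF against 15.2, 29.4 and 19.7 after RA, was not called. The 4 target genes that fell were the signalling genes Lefty1 (−2.46 ± 0.15), Bmp4 (−1.56 ± 0.14) and Wnt8a (−0.82 ± 0.27) and the homeobox gene Gbx2 (−0.66 ± 0.07).

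Hox genes were switched on across all 4 clusters, with their largest changes among the genes numbered 3 to 6 of each cluster. Of 39 listed genes, 35 were in the table and 32 were tested; 29 rose, 0 fell and 3 were not called, with a median of 6.5 (also 6.5 with the 2 genes that had 0 reads in serum/LIF at their bound). By cluster, 7 of 9 tested Hoxa genes, 10 of 10 Hoxb genes, 7 of 7 Hoxc genes and 5 of 6 Hoxd genes rose, with medians of 4.14, 7.45, 8.60 and 4.22. A gene that passed the filter only with RA libraries of either genotype was picked partly for high values after RA. These counts therefore describe the list and support nothing. Of the 32 genes 13 passed only in that way, of which 12 rose and 1 was not called. Of the 19 that passed on serum/LIF libraries alone 17 rose and 2 were not called. The same filter applies to every other gene list given here. This split was not made for them, so their counts of rises also only describe the lists. Hoxa11, Hoxa13 and Hoxd11 stayed below the filter, with means of 2.78, 4.89 and 2.42 after RA.

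Hoxb6 stood at 6.88, 0 and 2.25 normalized counts in serum/LIF and at 2757, 2861 and 2593 after RA (9.86 ± 0.60, limma adjusted p = 1.44e-07, higher in 3 of 3 libraries). Hoxc5 had the largest change of all genes under the naming rule, from 4.59, 0 and 11.3 to 4845, 5149 and 4692 (10.22 ± 0.83), and Hoxb5 went from 4.59, 14.1 and 11.3 to 8079, 8300.4 and 8337 (9.67 ± 0.42). Every RA library of these genes lay far above every serum/LIF library, although genes named for large changes were required not to overlap. Hoxc6 and Hoxd3 had 0 reads in serum/LIF and means of 588 and 196 after RA, which makes them at least 512-fold and at least 171-fold higher against a floor of 3 reads over the group. Hoxc4 (9.26 ± 0.44) and Hoxc8 (8.60 ± 0.68) rose by similar amounts.

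The first genes of the Hoxb cluster, which act in the hindbrain, rose as well. Hoxb1 rose from 27.8 to 5636 (7.76 ± 0.31) and Hoxb2 from 58.7 to 7518 (7.0 ± 0.12). At the other end of the clusters, which serves the trunk and tail, several changes were small or not called. Hoxa9 (1.11 ± 0.64), Hoxa10 (−0.66 ± 0.49) and Hoxd13 (−0.69 ± 0.41) were not called, although limma called Hoxa9 without replicate 1 of DKO after RA (1.89). Hoxc13 rose by 0.85 ± 0.33, a limma call lost when DKO replicate 1 from serum/LIF was left out (0.72) or replicate 1 or 2 after RA, and Hoxc10 rose from 0.751 to 30.0 (4.37 ± 0.68). Hoxb13 went from 6.88, 11.7 and 18.0 before to 648, 577 and 617 after RA (5.63 ± 0.48).

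For most Hox genes no difference from WT cells was called; the Hox median in WT was 6.28. The interaction (the RA response of DKO minus that of WT) was called higher for 4 Hox genes and lower for 4 of 32; over all genes tested it was called higher for 14.8% and lower for 16.0%. Hoxb1 (1.77 ± 0.44), Hoxa4 (1.33 ± 0.43), Hoxa3 (0.77 ± 0.25) and Hoxb2 (0.75 ± 0.17) gained more in DKO, while Hoxd8 (−2.12 ± 0.72), Hoxd3 (−1.96 ± 0.53), Hoxa2 (−1.34 ± 0.25) and Hoxb8 (−1.27 ± 0.21) gained less. The limma calls of Hoxa3, Hoxa4 and Hoxd8 were each lost on leaving out 1 of several libraries, with the estimate of Hoxd8 at −1.34 when WT replicate 3 from serum/LIF was left out, and edgeR did not call Hoxd3. For the rest the difference missed the threshold, which does not show that they responded alike.

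Pluripotency genes fell together. Pou5f1, which encodes OCT4, the central factor of pluripotency, went from 30343, 31174 and 31154 normalized counts to 1220.2, 1270.1 and 1201 (−4.65 ± 0.05). Vrtn, a vertebral number gene expressed in ES cells, went from 675, 688 and 650.0 to 0, 5.51 and 0 (−8.49 ± 0.56), the largest fall under the naming rule. Tdh, threonine dehydrogenase, on which mouse ES cells depend for one-carbon units, went from 12611, 12058 and 13014 to 109, 116 and 87.7 (−6.91 ± 0.09), and Foxd3, a factor of epiblast and neural crest, from 588, 684 and 803 to 9.48, 3.67 and 5.37 (−6.66 ± 0.27). In each of these 4 genes every RA library lay far below every serum/LIF library, although genes named for large changes were required not to overlap.

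Of 28 naive pluripotency genes 27 fell and 1 rose (median −2.94), and of 26 tested general pluripotency genes 25 fell and 1 rose (median −3.14). Those that rose were Stat3, the transducer of LIF signals (0.64 ± 0.04), and Thap11, a factor with a general growth role (0.44 ± 0.05). The nuclear receptor Esrrb fell from 10843 to 439.6 (−4.63 ± 0.07), Nr0b1, known as Dax1, from 1647 to 36.0 (−5.53 ± 0.16), and the Nodal co-receptor Tdgf1 from 23132 to 348 (−6.06 ± 0.08). Utf1 (−5.10 ± 0.07), Fbxo15 (−4.84 ± 0.06) and Sox2 (−2.96 ± 0.04) fell as well. Sox2, also a neural progenitor factor, went from 14516 to 1865. The direction of both lists was the same under all 15 alternatives tried, and the naive median stayed between −2.96 and −2.70.

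Genes of the formative and primed epiblast, the states that follow naive pluripotency in the embryo, mostly fell too. Of 24 tested, 18 fell and 6 rose (median −3.01). Otx2, the factor that starts this transition, went from 1202, 1174 and 1173 to 11.4, 18.4 and 10.7 (−6.39 ± 0.47). Those that rose included genes shared with other tissues: Cdh2, which encodes N-cadherin (1.06 ± 0.06), Krt18 (2.75 ± 0.07) and Sox4 (1.99 ± 0.04). Genes of the 2-cell-like state, which marks rare ES cells resembling the early embryo, had few reads in DKO. Of 24 tested, 13 were higher, 4 lower and 7 not called (median 1.75, and 1.75 with the 9 genes that had 0 reads in a group at their bound). Many of them are near-identical copies, so their separate counts are uncertain. Genes that passed the filter on low values only with RA libraries of either genotype were not set apart. The count of higher genes therefore only describes the list. Eif1a, the one abundant member, fell from 9051 to 2875 (−1.65 ± 0.04).

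**Figure D2:**
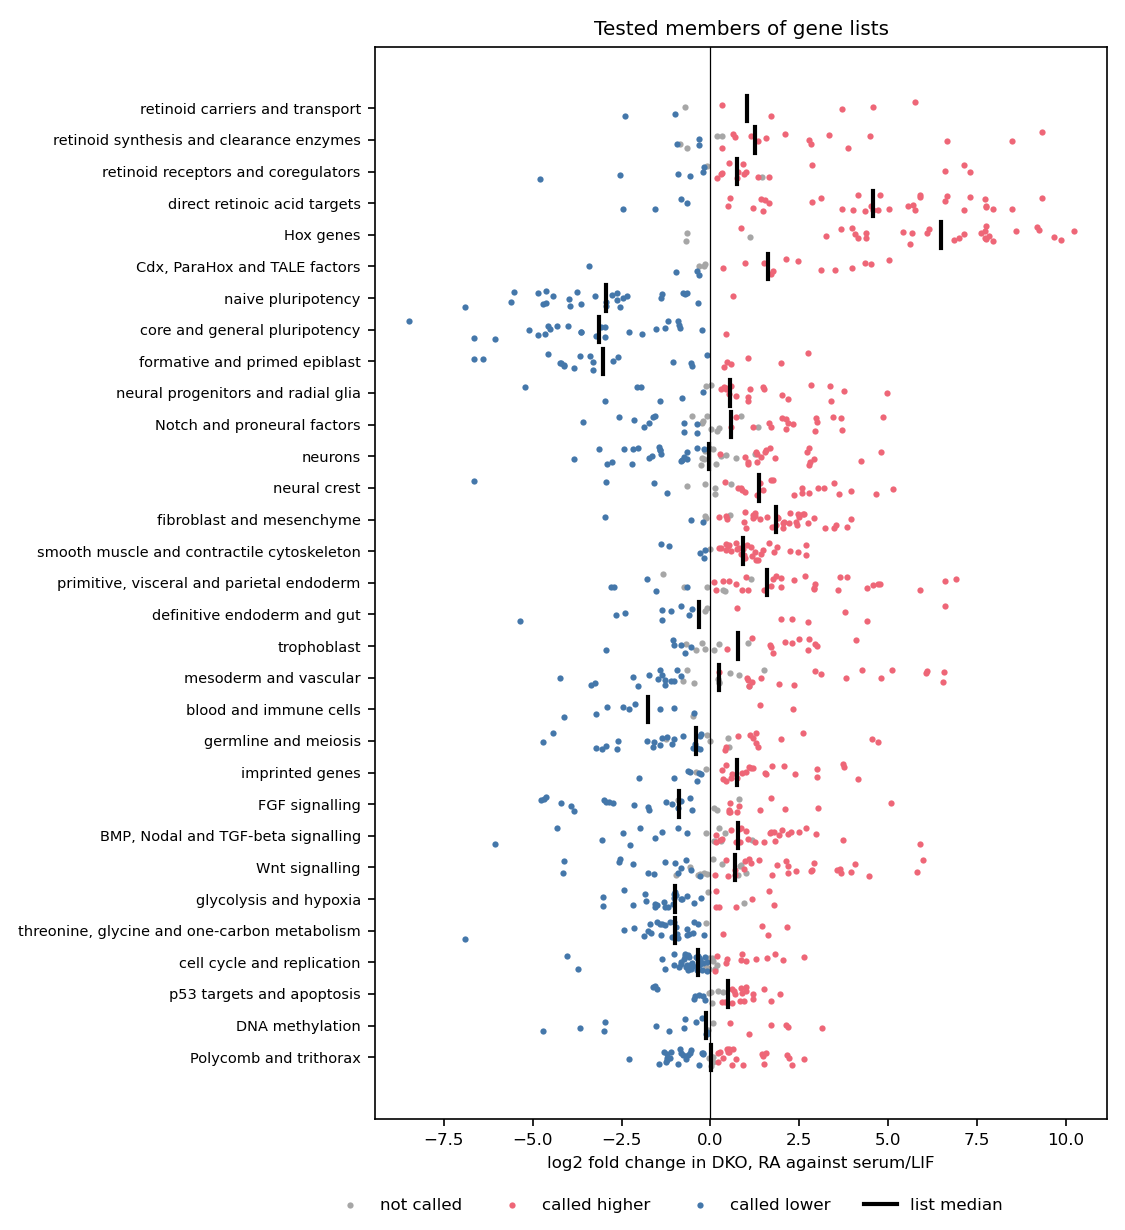
Log2 fold change of RA against serum/LIF in DKO (x axis) for the tested members of 31 gene lists (rows), 1 point per gene, red where called higher, blue where called lower and grey where not called, with the list median as a black bar. The Hox and direct RA target lists lie at the right with medians of 6.5 and 4.57, the pluripotency lists at the left near −3, and the neuron, Polycomb and DNA methylation lists are spread around 0.

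Neural progenitor genes moved in both directions. Of 28 neural progenitor and radial glia genes 19 rose, 7 fell and 2 were not called (median 0.55). Sox9, a factor of glial progenitors, neural crest and several other tissues, rose from 46.7 to 1499 (4.98 ± 0.14), and Dach1 (3.76 ± 0.10) and Zbtb16 (3.35 ± 0.14) rose. The pan-neural SoxB1 gene Sox1 moved the other way, from 1469.9, 1648 and 1495 in serum/LIF to 421, 408 and 361 after RA (−1.95 ± 0.08), and Sox21 fell from 514 to 122 (−2.07 ± 0.13). Fabp7, the brain lipid-binding protein of radial glia, went from 342, 358 and 229.8 to 7.58, 9.18 and 5.37 (−5.21 ± 0.26). None of these groups overlapped.

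Genes that pattern the neural tube also moved both ways. Irx3 (3.5 ± 0.13) rose, as did Foxa2, the floor plate and endoderm factor, from 3.06 to 383 (6.59 ± 0.40), and Gas1, a Sonic hedgehog co-receptor, from 126 to 5979 (5.57 ± 0.09). The forebrain and midbrain genes Otx2 and En2 (−2.86 ± 0.21) fell, and so did Olig1 (−5.47 ± 0.33) and Olig2 (−5.63 ± 0.42), which had means of 727 and 568 in serum/LIF. Of 47 tested patterning genes 24 rose, 11 fell and 12 were not called.

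Some proneural factors rose from low levels, while neuron genes had no common direction. Neurog1 rose from 46.6 to 206 (2.12 ± 0.20) and Ebf3 from 21.4 to 239 (3.44 ± 0.24), while the Notch modifier Lfng fell from 359 to 60.0 (−2.57 ± 0.14). Of 51 neuron genes tested, 19 rose, 21 fell and 11 were not called; their median was −0.04, and it changed sign under scaling to equal totals (0.19), without the filter on low values, and without replicate 2 of DKO after RA. Dcx, the microtubule protein of migrating neurons, rose from 18.3 to 319 (4.23 ± 0.31), Lhx1 from 16.9 to 475 (4.81 ± 0.28) and the guidance gene Ntn1 from 759 to 5327 (2.81 ± 0.05). Tubb3, neuronal tubulin, fell from 6916, 6723 and 7517 to 1022, 1147 and 939.6 (−2.77 ± 0.07), and Stmn2 (−3.85 ± 0.08), Nefh (−3.14 ± 0.07) and Ina (−2.90 ± 0.06) fell. DKO cells in serum/LIF had means of 9338 for Stmn2 and 3163 for Nefh.

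Mesenchymal genes rose broadly. Of 40 tested fibroblast and mesenchyme genes 34 rose, 3 fell and 3 were not called (median 1.86), and their summed level lay between 80097.6 and 85779.9 normalized counts in serum/LIF and between 149362 and 152374 after RA. The factors Twist1 (3.48 ± 0.16) and Prrx1 (3.96 ± 0.50), the growth factor receptor Pdgfra, from 31.7 to 469 (3.85 ± 0.16), and the fibrillin gene Fbn2 (3.53 ± 0.09) rose. The surface antigen gene Thy1 (−2.95 ± 0.61) and the fibronectin gene Fn1 (−0.56 ± 0.04) fell. None of the listed members was at 0 in all DKO libraries. Whether a share of cells or all of them gave these levels was not tested. Of 30 neural crest genes 21 rose, 4 fell and 5 were not called (median 1.37), among them the endothelin receptor Ednrb, from 13.7 to 509.9 (5.15 ± 0.30), and Sox6 (3.19 ± 0.14), while Foxd3, Tfap2c (−2.95 ± 0.09) and Ngfr (−1.59 ± 0.13) fell. Smooth muscle and contractile genes rose in 29 of 35 cases and fell in 5 (median 0.90), with the smooth muscle myosin gene Myh11 from 37.7 to 227 (2.69 ± 0.31) and Flnc from 3456 to 12635 (1.87 ± 0.06).

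Of 40 extraembryonic endoderm genes tested, 29 rose, 5 fell and 6 were not called (median 1.61, also with the 4 genes that had 0 reads in a group at their bound). Genes that passed the filter on low values only with RA libraries were picked partly for high values after RA. They were not set apart, so the count only describes the list. Over the 15 alternatives tried, which included no filter, 23 to 31 rose and 3 to 6 fell. Ttr, transthyretin, the plasma carrier of thyroxine and of retinol-binding protein, had 0 reads in serum/LIF and 137, 123 and 103 normalized counts after RA, at least 105-fold higher. Foxa1, a pioneer factor of endoderm, rose from 12.2 to 329 (4.78 ± 0.28), while the apolipoprotein genes Apoa2 (−2.72 ± 0.19) and Apoe (−1.53 ± 0.05) fell. Definitive endoderm and gut genes had no common direction, with 7 higher, 9 lower and 2 not called. Krt19 rose from 385 to 8088 (4.40 ± 0.08), and Cdh1, which encodes E-cadherin, fell from 14758 to 5777 (−1.35 ± 0.04), as did Epcam (−2.66 ± 0.05) and the splicing regulator of epithelia Esrp1 (−3.68 ± 0.10). The simple keratin gene Krt8 rose (2.30 ± 0.08).

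Other lineages gave mixed counts. Of 26 trophoblast genes 13 rose and 6 fell, with Gata3 from 100.5 to 1709 (4.09 ± 0.12) and Tfap2a from 19.9 to 135 (2.76 ± 0.30) higher and the trophoblast stem cell factor Eomes (−0.83 ± 0.19) lower. Of 43 mesoderm and vascular genes 18 rose and 15 fell, with genes that passed the filter only with RA libraries not set apart. The paraxial and lateral mesoderm factors Meox1, from 6.12 to 613 (6.57 ± 0.29), Foxc2 (6.55 ± 1.06), Osr1 (6.08 ± 0.41) and Hand2 (6.10 ± 0.58) rose from nearly 0, and Pecam1, an adhesion gene of endothelium and of undifferentiated ES cells, fell from 4904 to 518 (−3.25 ± 0.08). Of 20 tested heart and skeletal muscle genes 7 rose and 8 fell. Blood and immune markers were low throughout: 12 of 21 listed were tested, 2 rose and 9 fell, and their summed level was 805 to 873 normalized counts in serum/LIF and 592 to 666 after RA.

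Germline and meiosis genes moved both ways. Stra8, which starts meiosis in germ cells on exposure to RA, went from 1562, 1496 and 1406 normalized counts to 39373, 39012 and 37800.4 (4.70 ± 0.04, limma adjusted p = 3.51e-29, higher in 3 of 3 libraries), and the meiotic cohesin gene Rec8 from 979, 1012 and 848 to 22339, 22060.5 and 21944 (4.55 ± 0.05). Meioc (1.34 ± 0.08) and Taf7l (2.60 ± 0.13) rose. The germline list as a whole had 12 higher, 23 lower and 5 not called of 40 (median −0.40), with Dppa3 (−4.72 ± 0.11), Prdm14 (−4.42 ± 0.39), Nanos3 (−3.05 ± 0.26) and Hormad1 (−3.23 ± 0.14) among those that fell. Dazl, a germ cell RNA-binding protein gene, at 1575, 1692 and 1642 in serum/LIF against 1575, 1575 and 1490.0 after RA, was not called.

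Imprinted genes rose in 22 of 31 cases and fell in 7 (median 0.76). Peg10, a paternally expressed gene derived from a retrotransposon, went from 37189.7, 37199 and 36011 to 295713, 294077 and 298472 (3.01 ± 0.05), and Peg3 from 8183 to 65418 (3.00 ± 0.08). The growth factor gene Igf2 went from 596, 630.2 and 602 to 11309, 10893 and 10601 (4.16 ± 0.05), and Dlk1, a Notch ligand relative, from 66.5, 106 and 78.9 to 1104, 1170.0 and 1049 (3.74 ± 0.11). Igf2r, the receptor that clears IGF2, fell from 4952 to 3213 (−0.62 ± 0.04), and Phlda2, a placental growth restrainer, from 709 to 345 (−1.04 ± 0.10). Outside the imprinted list, a pair of neighbouring genes had very large changes: Duox2, a hydrogen peroxide generating oxidase, and its maturation factor Duoxa2 rose from 2.25 to 1023 (9.01 ± 0.65) and from 0.782 to 611 (8.67 ± 0.45). Since no source used here gives the strand setting of the counting, reads of overlapping or antisense genes cannot be told apart.

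FGF signalling genes fell in 19 of 34 cases and rose in 11 (median −0.87): the ligand gene Fgf4, the main autocrine FGF of ES cells, went from 4634 to 186 (−4.64 ± 0.08), and its response genes Spry4 (−4.76 ± 0.15) and Etv4 (−4.19 ± 0.09) fell, while the receptor gene Fgfr2 rose (1.71 ± 0.07). BMP, Nodal and TGF-beta genes rose in 27 of 43 cases and fell in 10 (median 0.77), with the BMP response gene Id2 from 407 to 3157 (2.96 ± 0.08) and Bmp2 (2.50 ± 0.16) higher and Gdf3 (−4.31 ± 0.08) lower. Wnt genes rose in 27 of 53 and fell in 14, with Wnt5a (4.06 ± 0.18) and the stem cell receptor Lgr5 (4.46 ± 0.30) higher and Lef1 (−4.11 ± 0.11) and the feedback gene Notum (−2.54 ± 0.12) lower. Genes of the LIF pathway moved both ways, with 9 higher and 7 lower of 19: Klf4 (−3.76 ± 0.10) and Socs2 (−3.02 ± 0.07) fell, and the receptor gene Il6st (0.74 ± 0.05) and Jak2 (1.89 ± 0.08) rose.

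Metabolic genes mostly fell. Threonine, glycine and one-carbon genes fell in 25 of 30 cases and rose in 4 (median −1.0), with Gldc, the glycine decarboxylase, from 9393 to 1742 (−2.43 ± 0.04), Shmt1 (−2.15 ± 0.04) and Mthfd2 (−1.87 ± 0.05) beside Tdh. Glycolysis and hypoxia genes fell in 22 of 31 and rose in 7 (median −1.0): Ldha went from 21501, 22045 and 20859 to 4043, 5914 and 4591 (−2.16 ± 0.14), and Pfkp (−3.02 ± 0.08) and Pdk1 (−3.03 ± 0.06) fell, while the muscle enolase Eno3 (1.80 ± 0.05) rose. Cholesterol genes fell in 20 of 31 and rose in 9, mostly by little (median −0.28, and −0.05 with equal totals). Stress genes under ATF4 and the unfolded protein response fell in 18 of 26, among them the amino acid transporter gene Slc7a3, from 6269.6 to 285 (−4.46 ± 0.06), and Chac1 (−2.36 ± 0.14). The heat shock genes Hspa1a (2.45 ± 0.25) and Hspa1b (1.67 ± 0.12), near-identical copies between which reads can be split, rose.

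Cell cycle genes fell slightly, 40 of 60 lower and 12 higher (median −0.34), and 31 lower and 21 higher with equal totals (median −0.10). Some regulators changed by far more than this median: Mycn went from 6629 to 407 (−4.03 ± 0.06) and Ccnd1, cyclin D1, from 7014 to 532 (−3.72 ± 0.05), while Ccnd2 (2.04 ± 0.07) and the inhibitor genes Cdkn2a (1.83 ± 0.12), Cdkn2b (1.6 ± 0.32) and Cdkn2c (2.64 ± 0.33) rose. Of 30 genes of the p53 response and apoptosis 17 rose and 8 fell (median 0.50); Bbc3, the gene of the cell death protein PUMA, rose (1.71 ± 0.07), as did Phlda3 (1.5 ± 0.06), although Trp53 itself fell from 21453 to 7574 (−1.5 ± 0.03). Interferon and innate immunity genes rose in 24 of 34 cases and fell in 7 (median 0.77), with the antigen presentation genes Tap1 (2.23 ± 0.09), Tap2 (2.62 ± 0.14) and Psmb8 (2.55 ± 0.21) higher and Ifitm1 (−4.24 ± 0.08) lower.

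Chromatin genes had no common direction. The list of Rlf, Zfp292 and CoREST complex genes, a corepressor, had 10 higher, 9 lower and 1 not called of 20, with Rlf itself, at 6 and 1 reads, among the lower. The CoREST partners Gse1, from 4881 to 21139.9 (2.12 ± 0.04), Phf21a (0.73 ± 0.06) and Zeb1 (1.20 ± 0.08) rose, and Rcor2, the CoREST paralogue of ES and neural cells (−0.66 ± 0.04), Hdac1 (−0.71 ± 0.04), Ctbp2 (−1.93 ± 0.04) and the neuronal gene repressor Rest, from 10887 to 3000.4 (−1.86 ± 0.06), fell. Polycomb and trithorax genes rose in 20 and fell in 21 of 46 cases. Among the CBX subunits, Cbx7, the form prevalent in ES cells, was lower (−1.31 ± 0.04) and Cbx8 (2.31 ± 0.20) higher, and Phc1 fell from 17968 to 3658 (−2.30 ± 0.04). In DNA methylation the de novo enzyme gene Dnmt3b went from 19723 to 1551 (−3.67 ± 0.04), its cofactor Dnmt3l from 13102 to 1690.3 (−2.95 ± 0.04) and Tet1 from 21203 to 2635 (−3.01 ± 0.08), while Tet3 (2.12 ± 0.07) rose; 13 of 21 fell and 6 rose (median −0.11), but 9 fell and 11 rose with equal totals (median 0.12).

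The DKO response differed from that of WT in many genes. The interaction was called for 4852 of 15750 genes (30.8%), 2328 with a higher and 2524 with a lower response in DKO, and for 4615 without replicate 2 of WT after RA. DKO and WT cells shared the direction for 5488 genes called higher and 5237 called lower in both. Of all genes tested, 40.2% were called higher in DKO and 41.4% in WT, and 38.2% and 39.2% lower. The fold changes rest on separate libraries, but the calls share the filter and the estimate of the spread, so they are not independent. Naive pluripotency genes fell less in DKO, with a median of −2.94 against −4.25 in WT and an interaction called higher for 21 of 28 and lower for 5 (the same numbers without replicate 2 of WT after RA). Pou5f1 had a log2 fold change of −6.29 ± 0.05 in WT (interaction 1.64 ± 0.07), Esrrb had an interaction of 1.54 ± 0.10, Otx2 of 2.46 ± 0.66 (not called with a pseudocount of 0.5) and the FGF genes Spry4 and Fgf4 of 2.14 ± 0.21 and 1.86 ± 0.11. Foxd3 went the other way, with a larger fall in DKO (−1.87 ± 0.38).

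Neural genes had mostly lower responses in DKO, that is smaller rises or larger falls. Serum/LIF levels of the neural and naive pluripotency lists were not compared between genotypes, so different starting levels can enter these differences. In WT, 32 of 51 neuron genes rose and 13 fell (of all genes, 80.6% were called in WT, 41.4% higher and 39.2% lower), with a median of 1.14 against −0.04 in DKO, and the interaction was lower for 28 and higher for 4 (26 and 6 without replicate 2 of WT after RA). For neural progenitor genes it was lower for 20 of 28 and higher for 1 (19 and 1). Sox1 was at 804, 774 and 744 in WT in serum/LIF and at 894, 938 and 863 after RA, a small rise (0.21 ± 0.08), and its interaction was −2.17 ± 0.11. Fabp7 in WT was at 76.4, 62.3 and 74.8 in serum/LIF against 55.8, 84.3 and 70.0 after RA (interaction −5.18 ± 0.37). In both genes DKO cells in serum/LIF lay above all WT libraries in serum/LIF and DKO cells after RA below all WT libraries after RA. Tubb3 (−1.17 ± 0.09), Dcx (−2.02 ± 0.44), Lhx1 (−2.48 ± 0.40) and Lfng (−2.96 ± 0.20) also had a lower signed response in DKO, while Ntn1 (1.57 ± 0.07) and Nefh (0.88 ± 0.10) had higher ones.

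**Figure D3:**
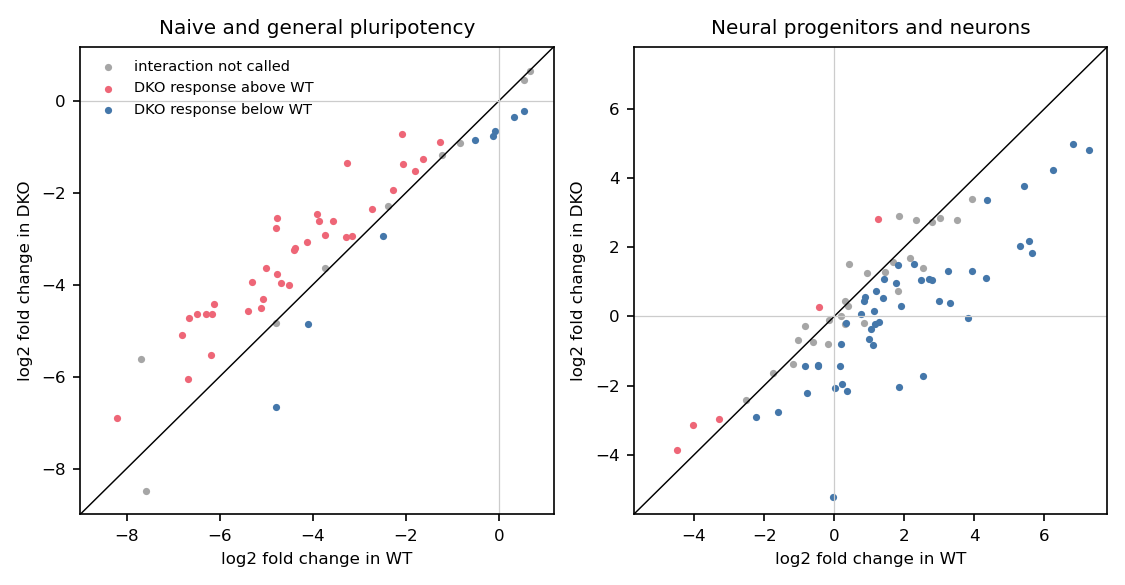
Log2 fold change of RA against serum/LIF in WT (x axis) and DKO (y axis) for tested pluripotency genes (left) and neural progenitor and neuron genes (right), 1 point per gene, coloured by the interaction call; the line marks equal responses. Most pluripotency points lie above the line, with Foxd3 at −6.66 in DKO below it, and most neural points lie below it, with Fabp7 lowest at −5.21.

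For retinoid genes the interaction was called higher for 1 and lower for 4 of 8 carriers, for 2 and 4 of 22 enzymes and for 5 and 3 of 23 receptors and coregulators, against 30.8% of all genes in either direction. It was higher for Rarg (1.62 ± 0.06), Rara (0.56 ± 0.07), Stra8 (1.73 ± 0.06) and Crabp2 (0.26 ± 0.08), and lower for Dhrs3 (−1.75 ± 0.21), Stra6 (−1.38 ± 0.18), Crabp1 (−1.24 ± 0.14), Rxrg (−2.63 ± 0.74), Aldh1a2 (−1.5 ± 0.25) and Adh1 (−3.5 ± 0.68). That of Cyp26a1 was called higher (0.39 ± 0.13), but the call was lost on leaving out any of 8 of the 12 libraries, with estimates down to 0.25. For Rarb (−0.04 ± 0.46) and Cyp26b1 (−0.55 ± 0.51) no difference was called. Of 31 imprinted genes 5 had a higher and 13 a lower response in DKO: Dlk1 (−2.96 ± 0.16), Igf2 (−1.37 ± 0.08), Igf2r (−1.27 ± 0.06) and Peg10 (−1.09 ± 0.06) had lower responses, and Peg3 (0.70 ± 0.11) a higher one. Fibroblast and mesenchyme genes had a lower response in DKO in 21 of 40 cases and a higher one in 3 (19 and 2 without replicate 2 of WT after RA), and genes of the p53 list a higher one in 17 of 30 and a lower one in 3 (16 and 3). In 266 genes (1.69%) the calls went opposite ways, 118 higher in DKO and lower in WT and 148 lower in DKO and higher in WT. The interaction was called for all of them, which opposite calls in the same fit nearly ensure, so this adds no support.

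Transcripts of repeats changed as well. Of 1387 deposited repeat names, 1170 were tested, and 542 (46.3%) were called, 274 higher (23.4%) and 268 lower (22.9%; median of all 0.01); with equal totals 287 were called, 179 higher and 108 lower. Names of the ETn and MusD retrotransposons, endogenous retroviruses that are active in ES cells and the early embryo, were among those that fell most. MMETn-int went from 51275, 49488 and 49962 normalized counts to 2486, 2742 and 2638 (−4.26 ± 0.05), and ETnERV-int from 6856, 6559 and 6904 to 646, 655 and 647 (−3.38 ± 0.05). Of 17 names on a list of ETn, MusD and other RLTR repeats 11 fell, 2 rose and 4 were not called. These counts do not describe ETn and MusD alone. RLTR13G (−3.38 ± 0.11) of the same list fell. Outside it MMERVK9C_I-int (−3.21 ± 0.06) and L1MEi, an old LINE fragment (−4.18 ± 0.06), fell as well.

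Other retroviral families had no common direction. Of 8 MERVL and MT2 names 1 rose and 5 fell, of 12 MaLR names 0 rose and 9 fell, and of 10 VL30 and ERV1 names 5 rose and 3 fell. A mixed list of 10 MMERVK, MuLV and RLTR names had 7 higher and 3 lower, which gives no direction for MMERVK alone. With equal totals 0 rose and 1 fell of the MERVL and MT2 names and 0 and 2 of the MaLR names. MMVL30-int, the internal part of VL30 elements, went from 1084, 1019.8 and 1079 to 6654, 6149 and 6577 (2.60 ± 0.05), its promoter repeat RLTR6_Mm from 99.7 to 636 (2.66 ± 0.11), and ERVB4_1-I_MM-int from 18.8 to 451 (4.52 ± 0.19). IAP elements, retroviruses kept under strong silencing, rose in 5 of 15 names and fell in 1 (6 and 2 in the fit to the 6 DKO libraries), with IAPEz-int at 5381, 5277 and 5441 in serum/LIF against 7379, 6963 and 7273 after RA (0.42 ± 0.05). Young L1 families diverged: L1Md_T rose from 9162 to 20636 (1.17 ± 0.04) and L1Md_Gf (1.64 ± 0.12) rose, while L1Md_F fell (−1.21 ± 0.07). Of 13 SINE names 11 fell, mostly by little (median −0.14), but only 2 fell with equal totals (median −0.05), and B2_Mm1a fell from 21035 to 8907 (−1.24 ± 0.06). Repeat names pool many near-identical copies, and no source used here says how reads that map to several places were treated.

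The response of repeats differed between genotypes for 78 names (6.67%), 33 higher (2.82%) and 45 lower (3.85%) in DKO; without replicate 2 of WT after RA it was 66, and with equal totals 13, 8 higher and 5 lower. MERVL-int, the retrovirus that marks 2-cell-like cells, stood in DKO at 1175, 1079 and 1158 before RA and at 1402, 1296 and 1409 after it (0.27 ± 0.06), and in WT at 2008, 1817 and 1631 before RA and at 13516, 13136 and 13190.3 after it (2.87 ± 0.06). Its small rise in DKO thus lay far below the rise in WT (interaction −2.61 ± 0.08), and its promoter repeat MT2_Mm was not called in DKO (−0.16 ± 0.07) and had an interaction of −1.83 ± 0.10. MMVL30-int also rose less in DKO (−1.02 ± 0.06), while L1Md_T rose more (0.50 ± 0.06). Neither difference was called with equal totals, where the median difference over all repeat names was 0.28, against −0.003 without this scaling. The rise of MERVL-int in DKO was not called there either, although its estimate was higher (0.35).

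**Figure D4:**
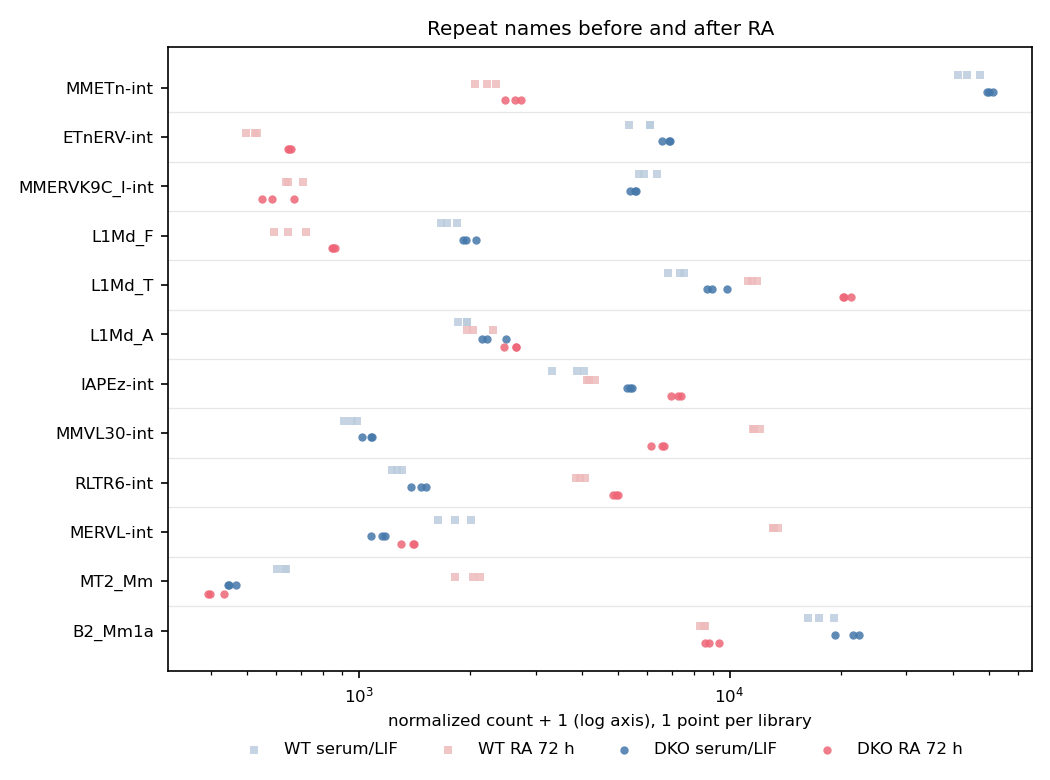
Normalized counts plus 1 on a log axis for 12 repeat names (rows), 1 point per library, with WT as pale squares and DKO as circles, serum/LIF in blue and RA in red (3 libraries per group). MMETn-int, ETnERV-int and MMERVK9C_I-int lie lower after RA and MMVL30-int and RLTR6-int higher in both genotypes, and MERVL-int lies near 13281 in WT after RA but near 1369 in DKO.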

How the data were processed

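Total RNA was sequenced as paired ends. Per the submitters' processing notes, Trim Galore 0.6.10, STAR 2.7.11b, featureCounts (Subread 2.0.6), DESeq2 1.44.0 and mm10 were used. The authors deposited signal values: reads per gene or repeat name divided by a library size factor, here called normalized counts, all within 0.01 of whole reads once rescaled. limma 3.58.1 (R 4.3.3; trend, robust) was fitted to log2(value + 1) of all 12 libraries, with values of 10 or more required in 3 libraries and Benjamini-Hochberg adjustment. edgeR 4.0.16 on recovered reads, scalings, pseudocounts, filters and left-out libraries were alternatives. On simulated data (14836 genes, DKO comparison) 70.8% of 1.5-fold, 79.2% of 2-fold and 100% of 4-fold and 8-fold changes were recovered. There 48 to 50 tested genes were changed per fold, and 17 unchanged genes were called. The share of changed genes was far below that called in the data, so these rates need not hold for this comparison. Members and lists were chosen with earlier results of these data known. Named genes were the markers, retinoid and Hox genes, and the largest called changes in all, among abundant genes and within each list. For the largest changes in all and among abundant genes, DKO groups that overlapped were left out, so their lack of overlap adds no support. A few named genes are not reported here. Intervals and floors cover counting error only.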

Additional observations from a re-analysis of the deposited data

Results flagged for a closer look

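The RA response differed between DKO and WT by the interaction test of limma for 4852 genes and 78 repeat names, and genes among those with the largest differences or with opposite calls are given here as the log2 difference of DKO minus WT. Higher responses in DKO were those of Nlrp4a (4.10), Spata20 (4.11), Pirt (3.81), Accsl (3.61), Slc15a1 (3.33), Myo1g (3.29), Chrna9 (3.23), Wnt10b (3.06), Serpina3i (3.03), Inhbb (2.99), Skor1 (2.87), Sgca (2.30) and Npm2 (1.86). Lower responses were those of Fabp7 (−5.18), Pramel39 (−4.75), Dbx1 (−4.51), Tex13b (−4.48), Vit (−4.46), Npy (−4.29), Snap25 (−4.27), Ncald (−4.21), Gad2 (−3.88), Ndnf (−3.77), Aqp9 (−3.51) and Nts (−3.31).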

How the results depend on the processing

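Genes called in DKO numbered 10688 to 12736 over scalings, filters, pseudocounts and edgeR (12326), and 11828 to 11988 with 1 DKO library left out. Similar totals can hide changes in which genes are called. With equal totals 12483 were called, and 11038 of them were also among the 12340 called without this scaling. Of those 11038 genes, 86 were called in the opposite direction. Genes called for the difference from WT numbered 4242 to 4792 with 1 library left out, 5261 with a pseudocount of 10 and 4991 by edgeR. With equal totals, repeat names called fell to 287 in DKO and to 13 for the difference from WT. WT replicate 2 after RA had the largest repeat total of the 12 libraries, so this scaling lowered it most. Its total was 3633620 normalized counts, against 2251550 and 2190320 in its replicates. Whether this library caused the loss of calls was not tested. Replicate numbers did not pair the DKO libraries (correlations of −0.03 to 0.02 over genes and −0.05 to 0.03 over repeat names; WT libraries were not checked); with the replicate block 12282 genes and 535 repeat names were called in DKO, and 4662 and 73 for the difference from WT. Of 252 results for named genes and repeats, 230 kept direction and call under all alternatives. Those that turned were small: with equal totals Cdx2 was at 0.0706, Dazl at 0.153 and Ncor1 at 0.0571, and Cdx2 ranged from −0.40 to 0.16 with 1 library left out. The difference from WT of Rarb was 0.0842 with a pseudocount of 10 and −0.38 to 0.36 with 1 library left out. The sign of the list median changed under an alternative in 3 of 41 gene lists and 1 of 9 repeat lists in DKO, and in 8 and 4 of them for the difference from WT. Genes with few reads limit what can be called.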
